A study of Mus musculus with 12 samples.

Results

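Transcripts of 10 genes of the epidermal growth factor (EGF) receptor system were examined in mouse tongue epithelium: the ligand genes Areg, Ereg, Epgn, Tgfa, Btc and Hbegf, the receptor genes Egfr, Erbb2 and Erbb3, and Errfi1, which encodes an intracellular inhibitor of the receptor kinases. The genes were chosen by symbol from 49164 genes with counts, and all 10 were abundant enough to be among the 14231 genes tested. The tongue epithelium came from Langerin-DTR mice injected with diphtheria toxin (DT, n = 6) or with phosphate-buffered saline (PBS, n = 6), 2 times per week from 2 weeks of age into adult life. Both groups carried the same allele, in which the langerin gene (Cd207) drives the toxin receptor, so the toxin reaches langerin-expressing cells, in this tissue Langerhans cells. None of the 12 samples came from mice without the allele given toxin, so an effect of the toxin itself and an effect of losing these cells cannot be told apart. The labels do not say that each sample is 1 separate mouse, and p-values measure the spread between the samples as given.

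The EGF receptor ligands are made as membrane-anchored precursors and are released by metalloproteases of the ADAM family. They bind EGFR, which pairs with itself or with ERBB2 or ERBB3 and signals through RAS, ERK and other kinases. In stratified epithelia, keratinocytes make several of these ligands and respond to them, and the pathway is known for its part in keratinocyte proliferation, migration and wound repair. HBEGF is also the protein to which diphtheria toxin binds in humans. The mouse protein binds the toxin poorly, which is why a receptor transgene makes chosen mouse cells sensitive.

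The DT libraries held 26181070 to 34333949 counts and the PBS libraries 21226436 to 30282813. Levels are given as CPM, the usual unit of counts relative to library size, with TMM scaling, which brings the bulk of genes to a common level between libraries. Fold changes, standard errors (SE), 95% intervals and adjusted p-values are from edgeR's two-sided quasi-likelihood test over all 14231 genes with Benjamini-Hochberg adjustment and a threshold of 0.05. By this test 185 genes, 1.30% of those tested, passed. Of all genes tested 0.857% (122) were lower and 0.443% (63) higher in DT; with library size as the only scaling these counts were 69 lower and 484 higher, and the median of all genes moved to 0.11. Leaving out 1 sample left between 46 genes (without DT 5) and 263 genes (without DT 1). Cd207, the check of the toxin, had 0 to 2 counts in each DT sample and 53 to 92 in each PBS sample. On the first principal component, with 30.5% of the variance, DT 1, DT 2, DT 3, PBS 5 and PBS 6 lay above 0 and the other 7 samples below 0. Results that rest on this division are given for both sides.

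Among the 10 genes, Areg fell in DT, and 9 did not pass the test. Ereg, Epgn, Tgfa and Btc had lower means in DT with adjusted p of 0.0511 to 0.0927 by edgeR, and passed by DESeq2. Hbegf was the ligand with a higher mean in DT, and it did not pass by either tool. Fold changes of the receptors Egfr, Erbb2 and Erbb3 lay between -0.03 and 0.08 on the log2 scale. At an unadjusted p under 0.05, 5 of the 10 genes were lower and 1 was higher, against 7.94% and 7.43% of all genes tested. By DESeq2, 5 of the 10 were lower after adjustment, against 2.71% of all genes tested.

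**Figure D1:**
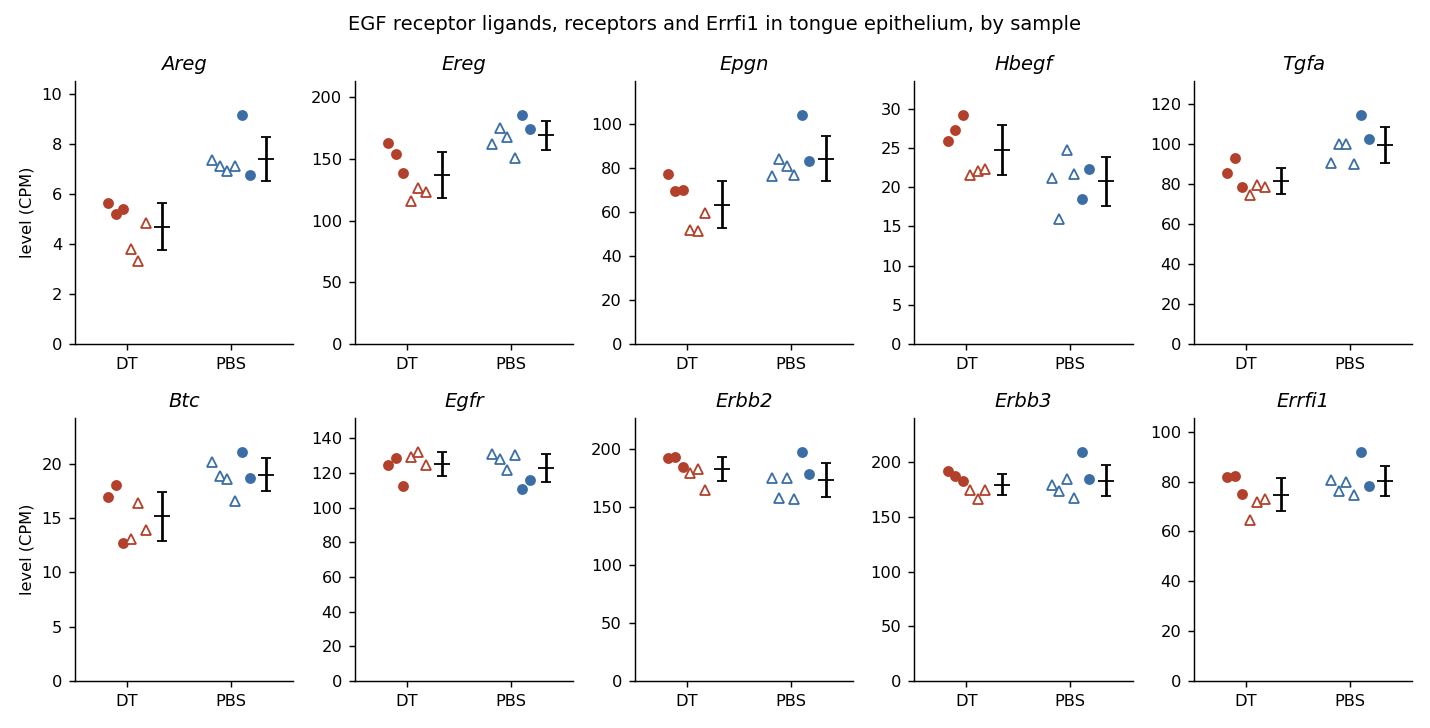
Level in CPM (linear axis from 0) of each of the 10 genes in the 6 DT and 6 PBS samples. Filled circles are samples above 0 and open triangles samples below 0 on the first principal component, and the bars give mean and SD. The 6 DT values of Areg, 3.31 to 5.65 CPM, lie below the 6 PBS values, 6.74 to 9.13 CPM.

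Areg (ENSMUSG00000029378) encodes amphiregulin, a heparin-binding ligand of EGFR that is made by keratinocytes and also by some lymphoid cells. Its lowest, median and highest levels were 3.31, 5.01 and 5.65 CPM in DT, against 6.74, 7.12 and 9.13 CPM in PBS. Every DT sample lay below every PBS sample, a separation in this direction that 1.37% of all tested genes had. DT 4 and DT 5 were the lowest samples and PBS 5 the highest. The mean was 4.69 ± 0.937 CPM in DT and 7.40 ± 0.875 CPM in PBS (SD, n = 6 each), which left a ratio of 0.631 (95% interval 0.524 to 0.761). The log2 fold change was -0.66 ± 0.13 (SE; edgeR adjusted p = 0.0216). In bulk tissue, fewer cells that make a transcript and less transcript per cell cannot be told apart. The call was lost without DT 4 (log2 fold change -0.61, edgeR adjusted p = 0.0508) and held in the other 11 fits that left out 1 sample.

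The promoter of Areg is shown because Areg was the member that fell, and that of Errfi1 because it carried the same motif without passing the test. Promoter windows are RefSeq sequences of build GRCm38.p6, 250 bases before to 50 after an annotated start, and were used for 7 of the 10 genes. Ereg, Erbb3 and Hbegf were left out of the motif search, so its results do not cover them. Both strands were searched for the cyclic AMP response element TGACGTCA and the AP-1 motif TGANTCA, which were chosen with the results known. TGACGTCA was found in the windows of 2 genes, Areg and Errfi1, and in 1.79% of 32851 windows of the same length. TGANTCA was in none of the windows of these 7 genes and in 7.81% of all windows. The capitals mark TGACGTCA, whose first base lies 61 bases before the Areg start (chr5:91139349-91139648, plus strand) and 51 bases before 1 of the 2 Errfi1 starts (chr4:150854820-150855119, plus strand). A match describes the letters and shows no binding.
Areg: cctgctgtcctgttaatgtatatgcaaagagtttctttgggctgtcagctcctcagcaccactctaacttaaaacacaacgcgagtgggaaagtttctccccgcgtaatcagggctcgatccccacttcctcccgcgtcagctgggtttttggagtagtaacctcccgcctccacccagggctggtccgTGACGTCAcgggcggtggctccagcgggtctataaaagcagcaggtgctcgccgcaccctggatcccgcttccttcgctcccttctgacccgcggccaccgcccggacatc
Errfi1: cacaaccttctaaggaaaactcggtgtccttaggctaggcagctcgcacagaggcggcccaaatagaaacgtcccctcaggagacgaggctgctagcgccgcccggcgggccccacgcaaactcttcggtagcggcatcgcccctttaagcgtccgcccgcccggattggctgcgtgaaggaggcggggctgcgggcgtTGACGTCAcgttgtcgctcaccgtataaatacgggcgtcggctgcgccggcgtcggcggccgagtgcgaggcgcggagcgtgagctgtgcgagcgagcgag

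Epgn (ENSMUSG00000035020) encodes epigen, a low-affinity ligand of EGFR. The lowest, median and highest values were 51.4, 64.6 and 77.4 CPM in DT, against 76.5, 82.3 and 104 CPM in PBS. DT 1 lay just above PBS 1 and PBS 4, and the other 5 DT samples lay below all PBS samples. The means were 63.4 ± 10.7 CPM in DT and 84.3 ± 10.2 CPM in PBS, a log2 fold change of -0.41 ± 0.10 SE (edgeR adjusted p = 0.0630; DESeq2 adjusted p = 0.0115). Without DT 1 it passed by edgeR (adjusted p = 0.0265).

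Ereg (ENSMUSG00000029377) encodes epiregulin, a ligand of EGFR and ERBB4. It had the most reads of the 6 ligand genes. From lowest over median to highest, it stood at 116, 133 and 163 CPM in DT, against 151, 171 and 185 CPM in PBS. DT 1 and DT 2 lay within the PBS range and the other 4 DT samples below it. The means were 137 ± 18.5 CPM in DT and 169 ± 11.9 CPM in PBS, a log2 fold change of -0.31 ± 0.08 SE (edgeR adjusted p = 0.0768; DESeq2 adjusted p = 0.0197). Without DT 1 Ereg passed by edgeR (adjusted p = 0.0277).

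Tgfa (ENSMUSG00000029999) encodes transforming growth factor alpha, a ligand of EGFR made by keratinocytes. Its lowest, median and highest levels were 74.6, 79.2 and 93.1 CPM in DT, against 90.1, 100.3 and 114 CPM in PBS. DT 2 lay above PBS 1 and PBS 4, and the other 5 DT samples lay below all PBS samples. The means were 81.7 ± 6.62 CPM in DT and 99.7 ± 8.98 CPM in PBS, a log2 fold change of -0.29 ± 0.07 SE (edgeR adjusted p = 0.0511; DESeq2 adjusted p = 0.00657). Without DT 2 Tgfa passed by edgeR (adjusted p = 0.0395).

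Btc (ENSMUSG00000082361) encodes betacellulin, a ligand of EGFR and ERBB4. The lowest, median and highest values were 12.7, 15.2 and 18.1 CPM in DT, against 16.6, 18.8 and 21.1 CPM in PBS. DT 1 and DT 2 lay within the PBS range and 4 DT samples below it. The means were 15.2 ± 2.25 CPM in DT and 19.0 ± 1.53 CPM in PBS, a log2 fold change of -0.32 ± 0.09 SE (edgeR adjusted p = 0.0927; DESeq2 adjusted p = 0.0320).

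Hbegf (ENSMUSG00000024486) encodes heparin-binding EGF-like growth factor, the mouse homologue of the human toxin receptor. Lowest, median and highest values were 21.6, 24.1 and 29.1 CPM in DT, against 15.9, 21.4 and 24.7 CPM in PBS. DT 1, DT 2 and DT 3 lay above all PBS samples, and the other 3 DT samples lay within the PBS range. The means were 24.7 ± 3.15 CPM in DT and 20.7 ± 3.08 CPM in PBS, a log2 fold change of 0.25 (95% interval 0.03 to 0.47; edgeR adjusted p = 0.242; DESeq2 adjusted p = 0.226). Mouse Hbegf had 728 to 825 counts per DT sample and 363 to 658 per PBS sample, against the Cd207 counts given above. Whether any reads of the human transgene were counted under mouse Hbegf was not tested.

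**Figure D2:**
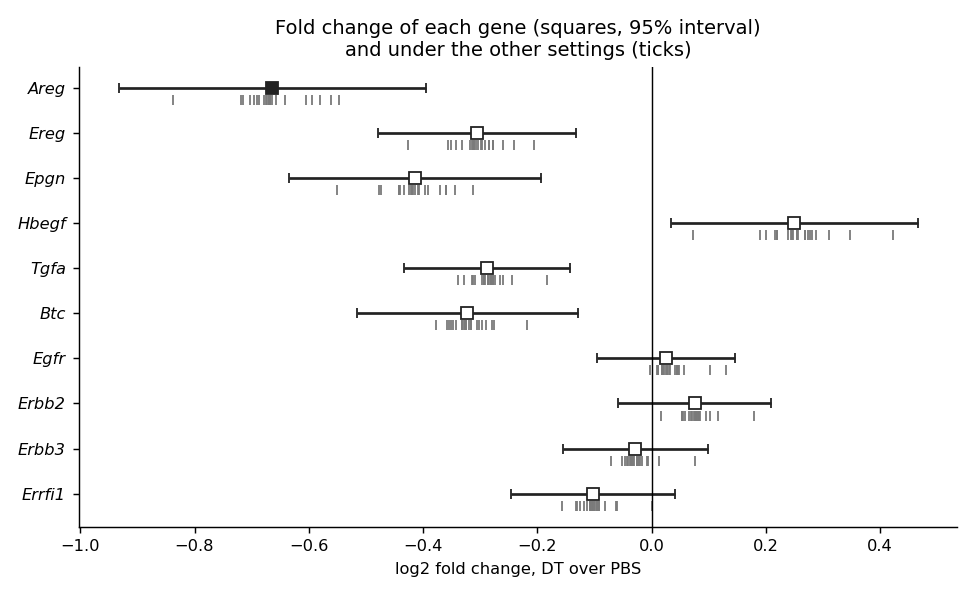
Log2 fold change, DT over PBS, of each gene with its 95% interval (squares; filled where the adjusted p is under 0.05) and its value under each of 22 other settings (ticks). Areg, Ereg, Epgn, Tgfa and Btc are below 0 and Hbegf is above 0 in every setting. Erbb2 reaches 0.18 and Egfr 0.13 with library size as the only scaling, where the median of all genes is 0.11.

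Egfr (ENSMUSG00000020122), the receptor of all 6 ligands, stood at 113, 126 and 132 CPM (lowest, median and highest) in DT, against 111, 125 and 131 CPM in PBS. The ratio of DT to PBS was 1.02 (95% interval 0.936 to 1.11; edgeR adjusted p = 0.878). Erbb2 (ENSMUSG00000062312) encodes the receptor that has no ligand of its own and acts as a partner. It stood at 165, 183 and 193 CPM in DT, against 157, 175 and 197 CPM in PBS, a ratio of 1.05 (0.960 to 1.16; edgeR adjusted p = 0.622). With library size as the only scaling, the log2 fold change was 0.18 for Erbb2 (edgeR adjusted p = 0.0716) and 0.13 for Egfr (edgeR adjusted p = 0.302), against a median of 0.11 over all genes. Erbb3 (ENSMUSG00000018166) encodes a receptor for neuregulins with a nearly inactive kinase. It stood at 166, 179 and 192 CPM in DT, against 168, 182 and 209 CPM in PBS, a ratio of 0.981 (0.898 to 1.07; edgeR adjusted p = 0.873) whose log2 value of -0.03 became 0.076 with library size as the only scaling. The groups overlapped for each receptor, and the intervals exclude changes of the size seen for Areg.

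Errfi1 (ENSMUSG00000028967), known as MIG6, is induced through ERK and binds the receptor kinases to shut them off. It stood at 64.6, 74.0 and 82.2 CPM in DT, against 74.5, 79.1 and 91.8 CPM in PBS. DT 4, DT 5 and DT 6 lay below all PBS samples and DT 1 to DT 3 within the PBS range. The ratio was 0.931 (95% interval 0.843 to 1.03; edgeR adjusted p = 0.504), and its log2 value of -0.10 became 0.00053 with library size as the only scaling.

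Ratios of counts within 1 library do not depend on how libraries are scaled to each other. For every 100 counts of Egfr there were 2.51 to 4.78 counts of Areg in DT samples and 5.46 to 8.24 in PBS samples, without overlap. For every 100 counts of Hbegf there were 15.04 to 21.84 counts of Areg in DT samples and 28.0 to 49.3 in PBS samples, again without overlap. The same ratios to Egfr overlapped between the groups for Ereg, Epgn, Tgfa, Btc and Hbegf. Such a ratio shows that 2 genes changed unequally, not how either of them changed.

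Levels of different genes were compared per kilobase of annotated exon (GENCODE M21, build GRCm38), a length that includes rarely used exons and so understates genes with many of them, such as Egfr. Epgn and Ereg were the most abundant ligand transcripts. Epgn stood at 35.1 ± 5.91 CPM per kb in DT and 46.7 ± 5.62 in PBS, and Ereg at 33.1 ± 4.48 in DT and 40.9 ± 2.87 in PBS (SD, n = 6 each). Tgfa followed at 12.6 ± 1.02 in DT and 15.4 ± 1.38 in PBS. Areg (3.86 ± 0.772 in DT, 6.09 ± 0.721 in PBS), Hbegf (5.11 ± 0.652 in DT, 4.29 ± 0.637 in PBS) and Btc (3.36 ± 0.499 in DT, 4.20 ± 0.339 in PBS) were the least abundant of the 6. In PBS the order from high to low was Epgn, Ereg, Erbb2, Erbb3, Errfi1, Tgfa, Egfr, Areg, Hbegf and Btc. The ranges of neighbours in that order overlapped for Epgn with Ereg, Ereg with Erbb2, Erbb2 with Erbb3, and Hbegf with Btc, and did not overlap for the other neighbours.

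**Figure D3:**
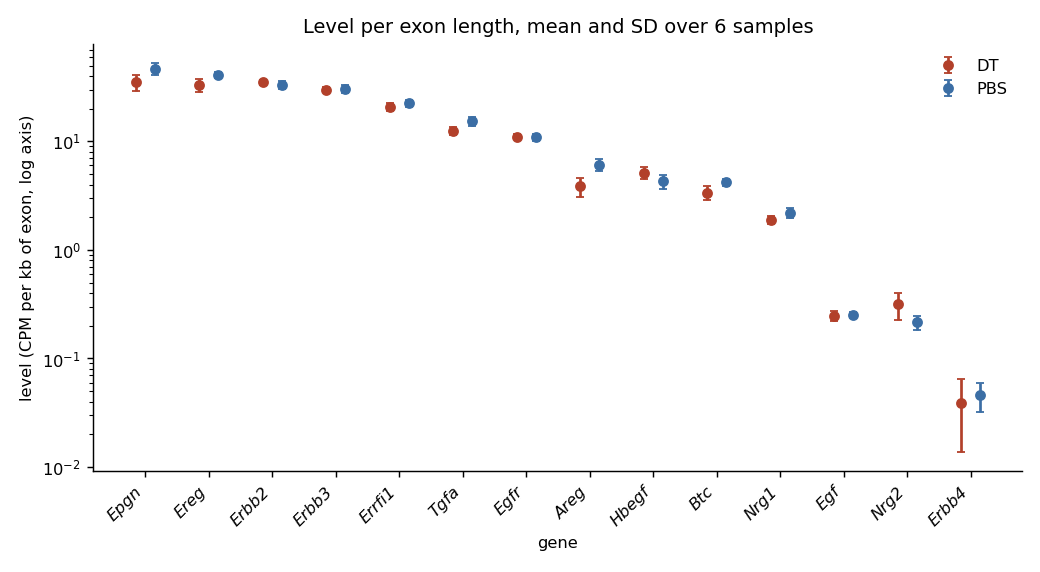
Level in CPM per kb of exon (log axis) of the 10 genes and of Nrg1, Egf, Nrg2 and Erbb4, ordered by the PBS mean. Points are means and bars SD over 6 samples, DT left and PBS right of each position. Areg lies above Hbegf in PBS (6.09 and 4.29) and below it in DT (3.86 and 5.11).

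As shares of the summed per-kb level of the 6 ligands, which also do not depend on scaling between libraries, Areg made up 4.13 ± 0.467% in DT and 5.18 ± 0.367% in PBS. Hbegf made up 5.505 ± 0.414% in DT and 3.68 ± 0.699% in PBS. For both genes the ranges did not overlap: Areg made up 3.31 to 4.59% in DT and 4.69 to 5.53% in PBS, and Hbegf 4.91 to 6.16% in DT and 2.80 to 4.41% in PBS. Epgn and Ereg together held most of the sum, Epgn with 37.5 ± 1.91% in DT and 39.6 ± 1.41% in PBS and Ereg with 35.6 ± 1.11% in DT and 34.9 ± 1.13% in PBS. These shares are descriptions and were not tested. Shares of 1 sum depend on each other, so the share of Hbegf can rise where the other ligands fall. In CPM the ranges of Hbegf overlapped, at 21.6 to 29.1 in DT and 15.9 to 24.7 in PBS. The sum itself was 78.7 to 109 CPM per kb in DT samples and 107 to 136 in PBS samples.

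Some ligand levels in the DT group also differed between the sides of the first principal component, while those of Tgfa and Btc overlapped. In PBS, the Areg values above 0 (6.74 to 9.13 CPM) spanned those below 0 (6.92 to 7.37 CPM). Within the DT group, DT 4, DT 5 and DT 6 (below 0) had lower Areg, Ereg and Epgn than DT 1, DT 2 and DT 3 (above 0): Areg stood at 3.31 to 4.82 CPM below 0 and at 5.19 to 5.65 CPM above 0. These 3 samples also had the largest libraries, 31152694 to 34333949 counts, against 26181070 to 28993552 for DT 1 to DT 3. Whether depth or the division plays a part in the ligand levels was not tested. Among the 7 samples below 0 the log2 fold change of Areg was -0.84 (edgeR adjusted p = 0.00168). Ereg, Epgn, Tgfa and Btc passed there too, at -0.43, -0.55, -0.29 and -0.36 (edgeR adjusted p of 0.000498 to 0.0315). In that set 1120 genes in all passed, against 185 over all 12 samples. The sides were set from the same expression values, and these fits were added after seeing the data. The DT samples below 0 are those with the lower Areg, Ereg and Epgn, so these p-values are no separate support. Among the 5 samples above 0, which hold 3 DT and 2 PBS samples, Areg stood at -0.55 (edgeR adjusted p = 0.154) and 0 of the 10 genes passed. In that set 3 genes in all passed, and the 5 ligand genes stood at -0.55 to -0.24. Hbegf stood at 0.42 above 0 (edgeR adjusted p = 0.134) and at 0.07 below 0 (edgeR adjusted p = 0.737), a difference that was not tested.

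With the side as a term in the fit over all 12 samples, Areg stood at -0.71 (edgeR adjusted p = 0.00101). Ereg (-0.35, edgeR adjusted p = 0.00147), Epgn (-0.48, edgeR adjusted p = 0.000522), Tgfa (-0.31, edgeR adjusted p = 0.00195) and Btc (-0.34, edgeR adjusted p = 0.0197) passed in that fit, in which 1017 genes passed in all. Hbegf (0.22, edgeR adjusted p = 0.172), the receptors and Errfi1 did not. The side was defined from the expression of all tested genes, the ligand genes among them, not from the labels. The p-values of this fit are therefore no separate support.

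**Figure D4:**
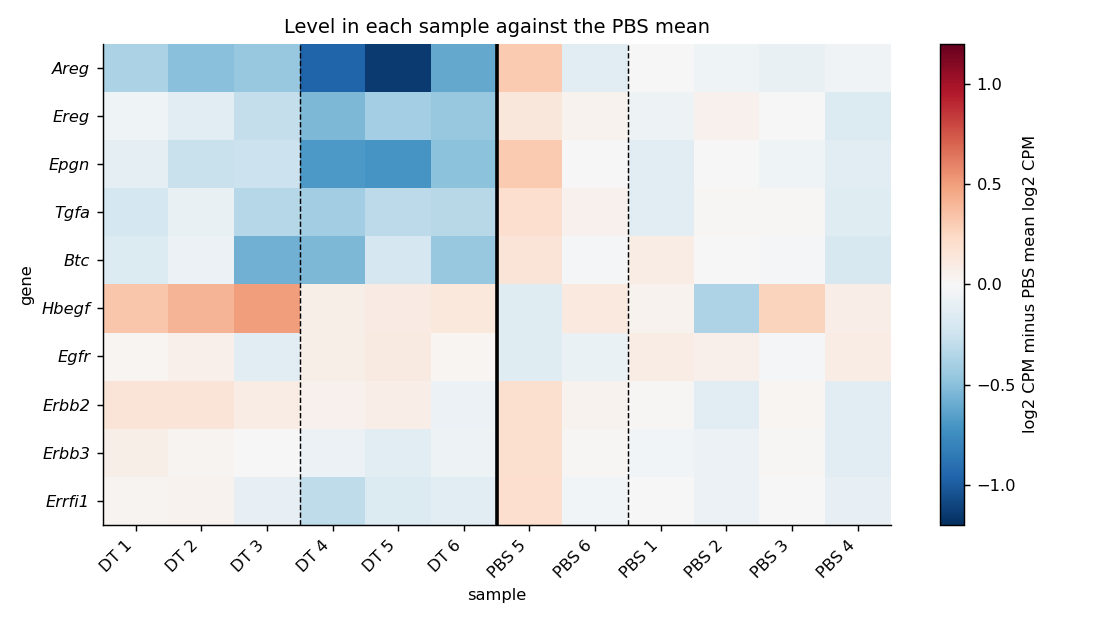
Log2 CPM of each gene in each sample minus its mean over the PBS samples (colour; blue is lower). The solid line parts DT from PBS and the dashed lines part samples above 0 (left) from those below 0 on the first principal component. DT 4, DT 5 and DT 6 are the lowest samples for Areg (3.31 to 4.82 CPM) and for Epgn (51.4 to 59.6 CPM).

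Areg, Ereg, Epgn and Btc lie next to each other on mouse chromosome 5, with no other protein-coding gene between them in GENCODE M21 (build GRCm38, used here for the order of genes). The nearest genes outside the block showed smaller fold changes. Mthfd2l, beside Epgn, stood at 0.04 (95% interval -0.13 to 0.21; edgeR adjusted p = 0.876). Beyond Btc, Parm1 stood at -0.17 (-0.47 to 0.13; edgeR adjusted p = 0.615) and Rchy1 at 0.13 (edgeR adjusted p = 0.326). The chemokine genes Cxcl1 and Cxcl2 and the gene Odaph, next in line, were too low to be tested. Tgfa, whose fold change was similar to that of Ereg, lies on chromosome 6.

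Ranked over 11553 tested genes that averaged 1 CPM or more and carried a named symbol, those whose log2 CPM was most like that of Areg over the 12 samples were Plxdc2 (Pearson r = 0.972), Hrnr (0.967), Serpina12 (0.966), Epgn (0.957) and Mfge8 (0.952). After the group means were taken off, the first 5 were Hrnr (r = 0.927), Plxdc2 (0.923), Serpina12 (0.922), Epgn (0.915) and Ifi35 (0.908). These are the highest of many values and describe the 12 samples only. Ifi35 itself stood at 0.03 between the groups (edgeR adjusted p = 0.914). Within each group, 45 pairs of the 10 genes gave 90 correlations, of which 23 had an exact permutation p under 0.05 and 0 passed after Benjamini-Hochberg adjustment (smallest adjusted p = 0.0625, with 0.00139 as the smallest p that 6 samples allow). DT 1 to DT 3 and DT 4 to DT 6 lie on opposite sides of the first component, so no correlation within DT is read further.

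Other genes of the ligand and receptor families did not pass. Nrg1, a ligand of ERBB3 and ERBB4, stood at 19.7 ± 1.70 CPM in DT and 22.6 ± 2.39 CPM in PBS (log2 fold change -0.20, edgeR adjusted p = 0.210). Nrg2 stood at 0.991 ± 0.278 CPM in DT and 0.676 ± 0.0996 CPM in PBS (0.55, edgeR adjusted p = 0.225), and passed without DT 1 (edgeR adjusted p = 0.0336). Egf itself was low, at 2.78 ± 0.295 CPM in DT and 2.86 ± 0.191 CPM in PBS (-0.04, 95% interval -0.26 to 0.18; edgeR adjusted p = 0.902). Erbb4 stood at 0.482 ± 0.313 CPM in DT and 0.568 ± 0.172 CPM in PBS, and Nrg3 and Nrg4 were too low to be tested. Neither edgeR nor DESeq2 called any of the 4 tested genes of this list (0 by both). An unadjusted p under 0.05 was reached by 2 of them, 1 higher and 1 lower, against 15.4% of all tested genes, and the median log2 fold change was -0.10, against 0.01 over all tested genes.

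Among 10 genes of ligand release, which include the sheddases Adam10 and Adam17 and the trafficking proteins Rhbdf1 and Rhbdf2, 0 passed by edgeR or DESeq2 and 1, higher in DT, had an unadjusted p under 0.05, against 15.4% of all genes (median log2 fold change 0.00). Timp3, an inhibitor of ADAM17, stood at 0.981 ± 0.208 CPM in DT and 0.642 ± 0.189 CPM in PBS (0.61, edgeR adjusted p = 0.184), and Cnih4 at -0.12 (edgeR adjusted p = 0.354). Of 14 genes that restrain or remove the receptors, 0 passed by edgeR and the median was 0.03. An unadjusted p under 0.05 was reached by 5 of the 14, 3 higher and 2 lower, against 15.4% of all genes. Cbl, a ubiquitin ligase that marks EGFR for degradation, was higher by DESeq2 (0.18, DESeq2 adjusted p = 0.0209) as 1.38% of all genes were, and stood at 61.6 ± 2.88 CPM in DT and 54.1 ± 3.07 CPM in PBS (edgeR 0.19, adjusted p = 0.0899). Ptpn1, a phosphatase that acts on EGFR, stood at -0.19 (edgeR adjusted p = 0.186). Of 24 adaptors and kinases of the signal chain, 0 passed by edgeR or DESeq2 and 1, lower in DT, had an unadjusted p under 0.05, against 15.4% of all genes, with a median of -0.01 and a range of -0.22 to 0.10. Gab1, an adaptor, stood at -0.13 (edgeR adjusted p = 0.210) and Gab2 at -0.22 (edgeR adjusted p = 0.422).

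Fosl1, which encodes the AP-1 subunit FRA-1 and is induced by ERK, was the member of the list of ERK feedback and target genes that fell. Its lowest, median and highest levels were 6.18, 6.77 and 9.08 CPM in DT, against 10.0, 10.7 and 13.2 CPM in PBS. Every DT sample lay below every PBS sample, as for 1.37% of all tested genes. The means were 7.37 ± 1.21 CPM in DT and 11.2 ± 1.31 CPM in PBS (log2 fold change -0.60 ± 0.11 SE, edgeR adjusted p = 0.0164). Fosl1 passed whichever of the 12 samples was left out (edgeR adjusted p up to 0.0477). It stood at -0.60 on both sides of the first component (edgeR adjusted p = 0.134 above 0 and 0.0131 below 0). Phlda1 stood at 37.4 ± 6.71 CPM in DT and 49.1 ± 4.91 CPM in PBS (-0.40, edgeR adjusted p = 0.0716; DESeq2 adjusted p = 0.0178). It was at -0.69 below 0 and -0.08 above 0 on the first component, a difference that was not tested. Dusp6, a phosphatase of ERK, stood at 12.04 ± 1.78 CPM in DT and 14.95 ± 1.41 CPM in PBS (-0.31, edgeR adjusted p = 0.121; DESeq2 adjusted p = 0.0497). Of the 18 tested genes 1 passed by edgeR, and 8 had an unadjusted p under 0.05, 5 of them lower and 3 higher, against 15.4% of all tested genes. By DESeq2, 3 of the 18 passed, against 4.10% of all genes tested. The median of the list was -0.04, with a range of -0.60 to 0.27.

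**Figure D5:**
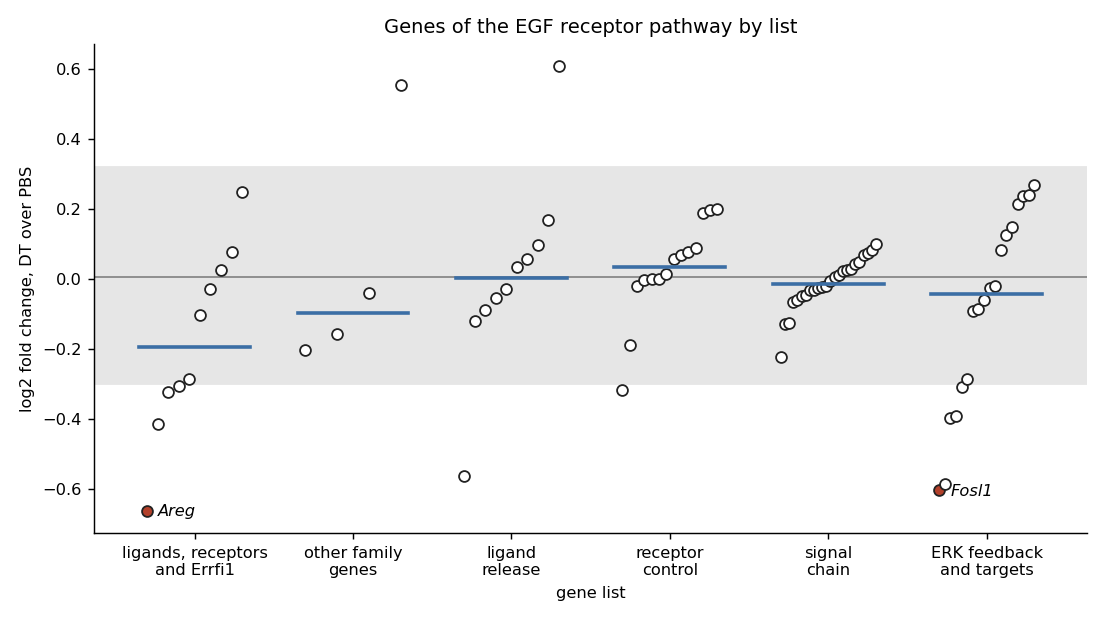
Log2 fold change, DT over PBS, of each tested gene of 6 lists (circles, filled where the adjusted p is under 0.05) with the median of each list (blue bar). The grey band spans the 5th to the 95th percentile of all tested genes, -0.30 to 0.32, and the grey line their median. Areg (-0.66) and Fosl1 (-0.60) are the filled points.

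Of 9 markers of differentiated tongue keratinocytes 3 fell, against 0.857% of all tested genes: Krt78, Rptn and Tchhl1, at -0.37, -0.48 and -1.61. The marker lists were chosen with earlier results of these data known, so such counts describe the lists and are no separate support. The other 6 did not pass by edgeR: Krt4 (-0.14), Krt13 (-0.19), Krt76 (-0.27), Tgm3 (-0.25), Crnn (-0.33) and Krt84 (0.04). Of the 9 markers 8 had negative fold changes, against 6888 of the 14231 tested genes, and the list median was -0.27. By DESeq2 4 of the 9 were lower, against 2.71% of all tested genes. An unadjusted p under 0.05 was reached by 5, all of them lower, against 7.94% of all tested genes. The summed level of the list was 128162 to 161625 CPM in DT and 155080 to 190610 CPM in PBS, most of it Krt13 (56428 ± 6014 CPM in DT, 64306 ± 6018 CPM in PBS) and Krt4. Of 7 basal keratinocyte markers 0 passed by edgeR and 1 was higher by DESeq2, against 1.38% of all tested genes. An unadjusted p under 0.05 was reached by 1 of the 7, against 15.4% of all tested genes. Their sum was 9216 to 11206 CPM in DT and 9824 to 11555 CPM in PBS, most of it Krt14 and Krt5. The part of these and of the following markers in the ligand levels was not tested. Of 6 tested markers of innate lymphoid and T cells, which can make amphiregulin, 0 passed by edgeR or DESeq2 and 0 had an unadjusted p under 0.05. The list, led by Thy1 and Il7r, summed to 8.908 to 10.998 CPM in DT and 8.33 to 11.7 CPM in PBS. Intervals of the low markers were wide, such as -0.57 to 0.90 for Cd3g and -0.08 to 1.11 for Cd3e. Gata3, Icos, Klrg1 and Foxp3 were too low to be tested. Neither these tests nor the sum measure the content of lymphoid cells. Of the 7 mast cell and basophil markers, 5 (Cpa3, Cma1, Tpsb2, Fcer1a and Ms4a2) had at most 3 counts in any sample, and the list, nearly all of it Kit, summed to 5.26 to 6.40 CPM in DT and 4.23 to 6.10 CPM in PBS.

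In the list of Langerhans cell markers 3 of 10 fell (Cd207 at -6.78, Mfge8 at -0.41 and Il10ra at -0.81), against 0.857% of all tested genes. This list too was chosen with earlier results known, and it holds Cd207, the check of the toxin. The other 7 did not pass by edgeR, among them Epcam (-0.03), Cd74 (-0.08), H2-Ab1 (-0.13), H2-Aa (0.03), Itgax (0.18) and Ly75 (0.31). Most of the list's sum was Cd24a, at 677 ± 29.8 CPM in DT and 787 ± 18.2 CPM in PBS (-0.22, edgeR adjusted p = 0.0511; DESeq2 adjusted p = 1.38e-05). The list summed to 867 to 1035 CPM in DT and 1059 to 1128 CPM in PBS. This sum fell far less than Cd207 (0.0189 ± 0.0231 CPM in DT, 2.80 ± 0.436 CPM in PBS), so it does not measure Langerhans cell content. Fibroblast markers, nearly all of them Dcn (290 ± 27.9 CPM in DT and 295 ± 29.5 CPM in PBS), summed to 264 to 332 CPM in DT and 254 to 338 CPM in PBS. The collagen genes among them, which hardly enter that sum, stood at -0.93 (Col1a1), -0.89 (Col3a1; DESeq2 adjusted p = 0.0401) and -0.60 (Col1a2), with edgeR adjusted p of 0.122 to 0.447. Pdgfra stood at 0.354 ± 0.0791 CPM in DT and 0.398 ± 0.132 CPM in PBS, and Lum had at most 6 counts in any sample. The sum of the fibroblast list thus follows Dcn and does not measure fibroblast content. All 5 tested fibroblast markers had negative fold changes, with a median of -0.60. Endothelial markers, led by Pecam1 and Vwf, summed to 4.98 to 7.52 CPM in DT and 4.88 to 11.2 CPM in PBS. Skeletal muscle markers, led by Myh4 and Tnnt3, summed to 5.01 to 27.8 CPM in DT and 3.94 to 58.8 CPM in PBS, with a median log2 fold change of -1.06. Taste cell markers, led by Entpd2 and Plcb2, summed to 6.88 to 11.4 CPM in DT and 6.75 to 9.87 CPM in PBS. Of the 4 tested, 1 fell, Chga (-1.72, edgeR adjusted p = 0.00909), against 0.857% of all tested genes. In the fibroblast, endothelial and muscle lists 0 genes passed by edgeR. By DESeq2 1 fibroblast marker, Col3a1, was lower, against 2.71% of all tested genes. An unadjusted p under 0.05 was reached by 2 of 5 tested fibroblast, 1 of 2 endothelial and 0 of 5 muscle markers, against 15.4% of all tested genes.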

How the data were processed

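Per the labels' protocols, the epithelium was separated with dispase and digested with collagenase, and libraries came from a stranded mRNA kit. For every gene and sample the authors deposited a raw count. They also deposited a normalized signal, which equals that count over the DESeq2 size factor of its sample (recomputed values differed by 0%) and served only for that check. Build GRCm39 and the tools HTSeq 2.01, TopHat2 2.1.1, DESeq2 1.36.0 and cutadapt 2.10 are named in the submitters' processing notes. Neither annotation nor strand setting is given in the sources used here. In GENCODE M21, exons of Ereg, Tgfa and Erbb2 overlap a gene on the opposite strand (Gm19610, Gm43917 and Mien1), so reads may be shared. Groups come from the sample titles. Of 55414 genes 6250 with blank counts were left out.

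Counts were fitted in R 4.3.3 with edgeR 4.0.16 (filterByExpr with a minimum count of 10, TMM, no covariate). SE and 95% intervals were derived from each fold change with its F value. DESeq2 1.42.0, limma 3.58.1 (voom), other scalings, no filter, a replicate block, the side of the first component as a term, and leaving out each sample were alternatives, and the fits were checked on simulated data. Fits within each side were added after seeing the data. Principal components used log2 CPM with 0.5 added. Total counts between 21226436 and 34333949 set the precision, and no 2 samples of a group were 1 library (chi-square per degree of freedom 6.81 to 61.7).

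The 10 genes, the pathway and marker lists and the rule for named genes were chosen with earlier results of these data known. The text names the 10 genes, called list members and otherwise the 2 with the smallest p in a pathway list, the 2 most abundant markers of a list, the 5 genes most like a called gene, and 3 neighbours on each side of the chromosome 5 block. Further list members are named outside this rule, among them Egf, Erbb4, Nrg4, the collagen genes and other markers that did not pass. The result of 1 marker list is not reported here.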

Additional observations from a re-analysis of the deposited data

Results flagged for a closer look

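In 42 groups of 6 samples, from 21 genes, the lowest and highest samples were compared with the rest of their group by the gap to the nearest sample as a share of the range (against Dixon's 95% critical value). Chance alone gives about 1 such sample in 20 groups, and 4 were found. PBS 5 was the highest PBS sample for Areg (9.13 CPM, the other PBS samples 6.74 to 7.37), for Epgn (104 CPM, the others 76.5 to 84.0) and for Errfi1 (91.8 CPM, the others 74.5 to 80.5). Without PBS 5, Areg stood at -0.59 (edgeR adjusted p = 0.0379), Epgn at -0.34 (edgeR adjusted p = 0.0954) and Errfi1 at -0.06 (edgeR adjusted p = 0.687). DT 1 was the lowest DT sample for Nrg2 (0.427 CPM, the others 1.07 to 1.14 CPM). Without DT 1, Nrg2 stood at 0.71 (edgeR adjusted p = 0.0336).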

How the results depend on the processing

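Areg, Ereg, Epgn, Tgfa and Btc were lower in DT in each of the 22 alternative fits (110 of 110 fold changes). These fits reuse the same 12 samples or part of them and are no separate support. With library size as the only scaling, Epgn passed (-0.31), Erbb3 (0.076) and Errfi1 (0.00053) turned positive, and 553 genes passed (69 lower, 484 higher), among them 2 of the 10 genes, 1 receptor-control gene and 2 ERK targets. Without a filter Epgn passed (-0.41), with 2 of the 10 genes and 2 ERK targets called. By DESeq2, Ereg (-0.31), Epgn (-0.42), Tgfa (-0.29) and Btc (-0.33) passed, and 583 genes were called (386 lower, 197 higher), with 5 of the 10 genes, 1 receptor-control gene and 3 ERK targets. With the side of the first component as a term, Ereg (-0.35), Epgn (-0.48), Tgfa (-0.31) and Btc (-0.34) passed, and 1017 genes were called (671 lower, 346 higher), with 5 of the 10 genes, 3 receptor-control genes and 3 ERK targets. Among samples above 0 Areg missed the threshold (-0.55), Cnih4 turned positive (0.037), and 3 genes were called (3 lower, 0 higher), with 0 of the 10 genes and 0 ERK targets. Among samples below 0, Ereg (-0.43), Epgn (-0.55), Tgfa (-0.29) and Btc (-0.36) passed, and 1120 genes were called (722 lower, 398 higher), with 5 of the 10 genes, 2 receptor-control genes and 6 ERK targets. The causes were not tested; fits within a side hold fewer samples.

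Samples with the same replicate number did not deviate together: correlations were -0.41 to 0.12, over 0.1 in 1 of 6 pairs, and 0 of 6 samples correlated best with their own number. With the number as a replicate block, Areg stood at -0.67 (edgeR adjusted p = 0.147), and 8 genes were called (7 lower, 1 higher), with 0 of the 10 genes and 0 ERK targets.

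Areg lost its call without DT 4 (edgeR adjusted p = 0.0508), while Ereg (0.0277) and Epgn (0.0265) passed without DT 1 and Tgfa (0.0395) without DT 2. Leaving out 1 sample gave Areg -0.72 to -0.58, Ereg -0.36 to -0.26, Epgn -0.47 to -0.34, Tgfa -0.33 to -0.24, Btc -0.38 to -0.28, Hbegf 0.19 to 0.31, Egfr -0.0024 to 0.056, Erbb2 0.05 to 0.12, Erbb3 -0.047 to 0.014 and Errfi1 -0.13 to -0.06; Egfr and Erbb3 changed sign without PBS 5. It gave 46 to 263 genes called (30 to 159 lower, 16 to 104 higher), 0 to 3 of the 10 genes, 0 to 1 of the other ligands and receptors and 1 to 2 ERK targets. The count of 185 moved by over 1.5 times without DT 2 (102), DT 3 (72), DT 4 (77), DT 5 (46), DT 6 (114), PBS 1 (97), PBS 2 (56), PBS 3 (67) or PBS 4 (115).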

Other observations

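Nrg4, which encodes neuregulin 4, a ligand of ERBB4, fell under the filter on low counts and so was not tested with the other genes; it was picked out after its values were seen. It had 10 to 16 counts per DT sample and 3 to 9 counts per PBS sample, or 0.425 ± 0.0889 CPM in DT and 0.230 ± 0.0902 CPM in PBS (SD, n = 6 each). The ranges in CPM overlapped, at 0.271 to 0.526 in DT and 0.113 to 0.344 in PBS. In the edgeR fit without a filter, over 30102 genes, the log2 fold change was 0.85 (edgeR adjusted p = 0.325). Nrg3 had 1 to 10 counts per DT sample and 0 to 5 per PBS sample, and Dusp4 had 3 to 8 counts per DT sample and 0 to 7 per PBS sample.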
